A study of Mus musculus with 20 samples.

Results

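The genes examined here encode the mTOR kinase complexes and the regulators that sit directly upstream of them, measured in whole hearts of iron-deficient and control mice. The 10 genes were chosen by name because *Deptor*, an inhibitor of the mTOR kinase, was much lower in the hearts of iron-deficient mice, so every difference between the diets given for these 10 genes is a description and carries no test. They were taken from a table of 23420 genes, and all 10 were among the 13590 genes that reached 1 CPM, the usual unit of counts scaled to the total of their library, in at least 10 mice. The control group held 10 wild type C57BL/6 males on a control diet, and the iron-deficient and anemic (IDA) group held 10 wild type C57BL/6 males on an iron-deficient diet. All mice began their diet at 3 weeks of age, stayed on it for 6 weeks and were 9 weeks old at tissue collection. On the iron content of the deficient diet the labels disagree, with less than 2 ppm in one field and more than 2 ppm in another. According to its methods the study dropped a mouse of each group as contaminated, and since the sources used here do not name them, all 20 were kept.

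mTOR is a serine-threonine kinase that works in a pair of complexes. In mTORC1 it is bound by raptor, encoded by *Rptor*, and promotes protein synthesis and restrains autophagy, whereas in mTORC2 it is bound by rictor, encoded by *Rictor*, and phosphorylates kinases such as Akt. mLST8 and the inhibitor DEPTOR occur in both complexes, and PRAS40, encoded by *Akt1s1*, inhibits mTORC1. Upstream, the complex of the *Tsc1* and *Tsc2* products switches off the small GTPase Rheb, the direct activator of mTORC1, and REDD1, encoded by *Ddit4*, acts through that complex to inhibit mTORC1 under hypoxia and other stress. In the heart, mTORC1 is known for its part in growth and hypertrophy.

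Total counts per mouse were 6797180 to 8960688 read pairs in control and 6682177 to 7833916 in IDA mice. Cardiomyocyte markers were abundant in every heart, with a summed level of 4472 to 5359 CPM in control and 3957 to 5527 CPM in IDA mice over 7 genes. In bulk tissue, fewer cells of a type and less RNA per cell cannot be told apart. Erythroid markers were higher in IDA in 5 of 5 tested genes at p below 0.01 in each of edgeR and DESeq2, where 30.6% of all tested genes were. Their summed level was 145 to 251.9 CPM in control and 262 to 862 CPM in IDA mice, and *Hba-a1* and *Hba-a2* had no counts in any mouse. Libraries also differed in how their counts were spread over long and short genes. For each mouse, a length trend was computed as the median deviation of the longest 10% of genes from their mean over all mice, minus that of the shortest 10%, on the log2 CPM scale. It ranged from 0.06 to 0.68 in control mice and from -0.83 to -0.06 in IDA mice, so the diets did not overlap on it, and its part in a difference between the diets cannot be told apart from that of the diet. Values with a gene length correction, which removes the average trend on exonic length from each mouse, are therefore given beside the uncorrected ones where they differ in direction or by more than 1.5 times.

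*Deptor*, on the plus strand of chromosome 15 (mm10, chr15:55112483-55254202), was the member with the largest difference. Control hearts ranged from 4.83 to 18.04 CPM around a median of 12.3, with a mean of 11.8 ± 4.48 CPM (SD, n = 10). IDA hearts ranged from 0.874 to 4.87 CPM around a median of 1.84, with a mean of 2.40 ± 1.34 CPM (SD, n = 10). Of the 10 mice on the deficient diet, 9 lay below the lowest control, and the groups touched only where IDA replicate 2, at 4.87 CPM, exceeded control replicate 6, at 4.83 CPM. These levels rest on 35 to 145 read pairs per control mouse and 7 to 33 per IDA mouse. The log2 fold change was -2.32 (standard error 0.28) and ranked 5 from the lowest among the 13590 tested genes. With the gene length correction it was -2.21 (standard error 0.27) and ranked 8. Among the 1359 genes with exons of 3410 to 4025 bases, the length class of *Deptor*, the median log2 fold change was -0.11 and 0 genes had a lower one.

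**Figure D1:**
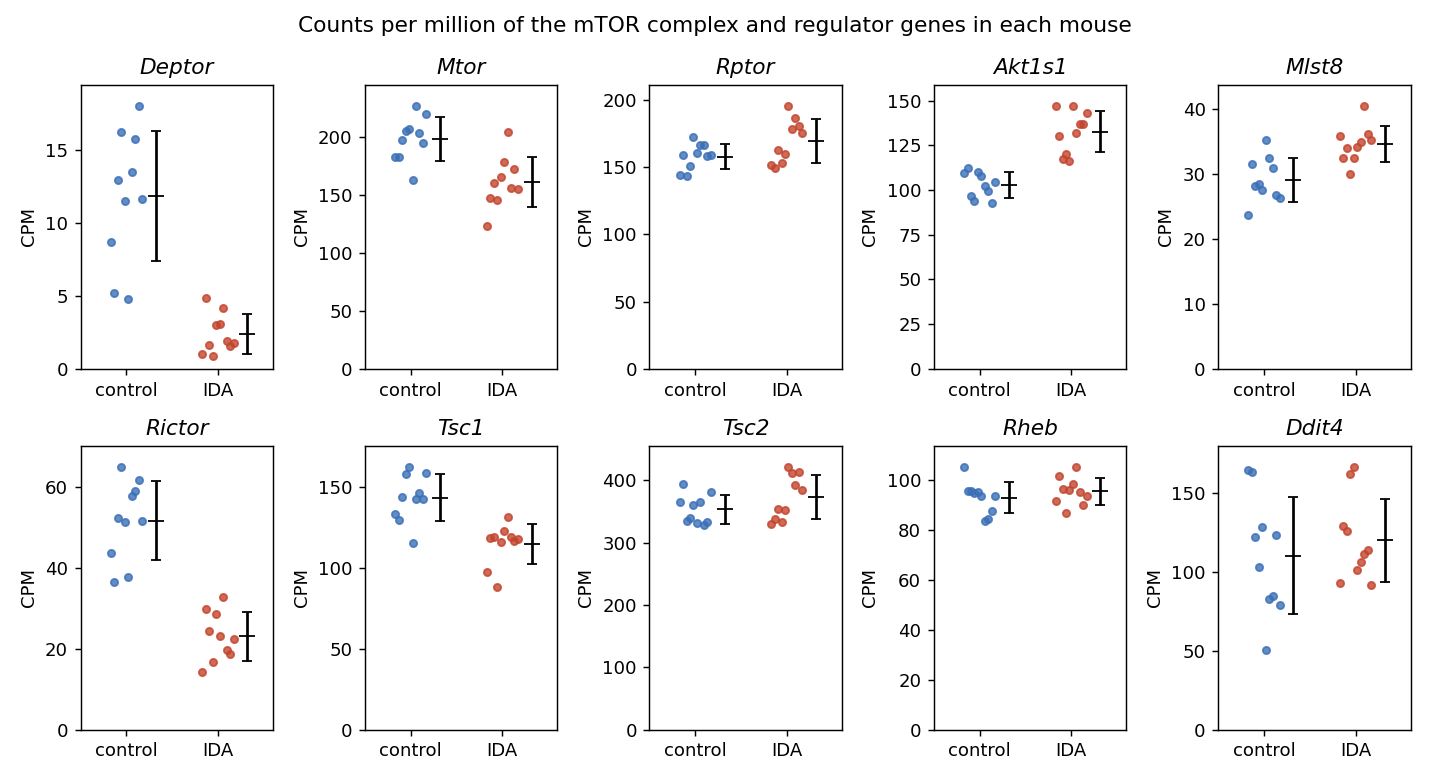
CPM of the 10 genes in each mouse, by diet (points, 10 mice per diet), with the mean and SD at the right of each group. *Deptor* is at 4.83 CPM or more in control and at 4.87 CPM or less in IDA mice, *Rictor* and *Akt1s1* do not overlap between the diets, and *Ddit4* and *Rheb* lie at similar levels.

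The gene model behind the counts bears on these values. The exons of *Deptor* counted by the authors came to 3437 bases in 10 exon entries, and 114 of them (3.32%), at chr15:55112483-55112596, are shared with *Gm9920* on the opposite strand. Because strand was not used, read pairs in that stretch cannot be told apart, but *Gm9920* had at most 4 counts in any control mouse and at most 6 in any IDA mouse. The RefSeq model of *Deptor* on the same build (GRCm38.p6) runs 5071 bases further downstream, and read pairs there were not counted. For the other 9 genes, that difference was 121 bases or less. The length class and the gene length correction used the 3437 counted bases, and values at a longer length for *Deptor* were not computed.

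Spread between mice on the same diet was widest for *Deptor*, with a coefficient of variation of 37.8% in control and 56.0% in IDA mice. Its level followed the length trend within the control group, with a Pearson correlation of r = 0.96 (permutation p = 5e-05, and 0.0005 when adjusted over 20 relations) and Spearman's rho = 0.96 (permutation p = 6e-05, adjusted p = 0.0006), and r = 0.95 once the 2 mice farthest out in *Deptor* were set aside. The 3 control mice with the lowest length trend, replicates 2, 6 and 1, were also the 3 with the lowest *Deptor*, at 5.22, 4.83 and 8.69 CPM. Among IDA mice, r was 0.68 (permutation p = 0.0323, adjusted p = 0.0808), rho was 0.58 (permutation p = 0.0891, adjusted p = 0.198), and r was 0.59 without the 2 farthest mice. A fitted line rose by 2.72 on the log2 scale per unit of length trend in control mice and by 2.09 in IDA mice. With the length trend of each mouse as a covariate, a fit added after the data were examined, the log2 fold change of *Deptor* between the diets was -0.15 (standard error 0.37), against -2.32 without it. In that fit 229 genes were called instead of 8131, a gene being called where edgeR and DESeq2 each gave p below 0.01. Because the covariate separates the diets completely, the fit compares control and IDA mice that share no value of it.

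**Figure D2:**
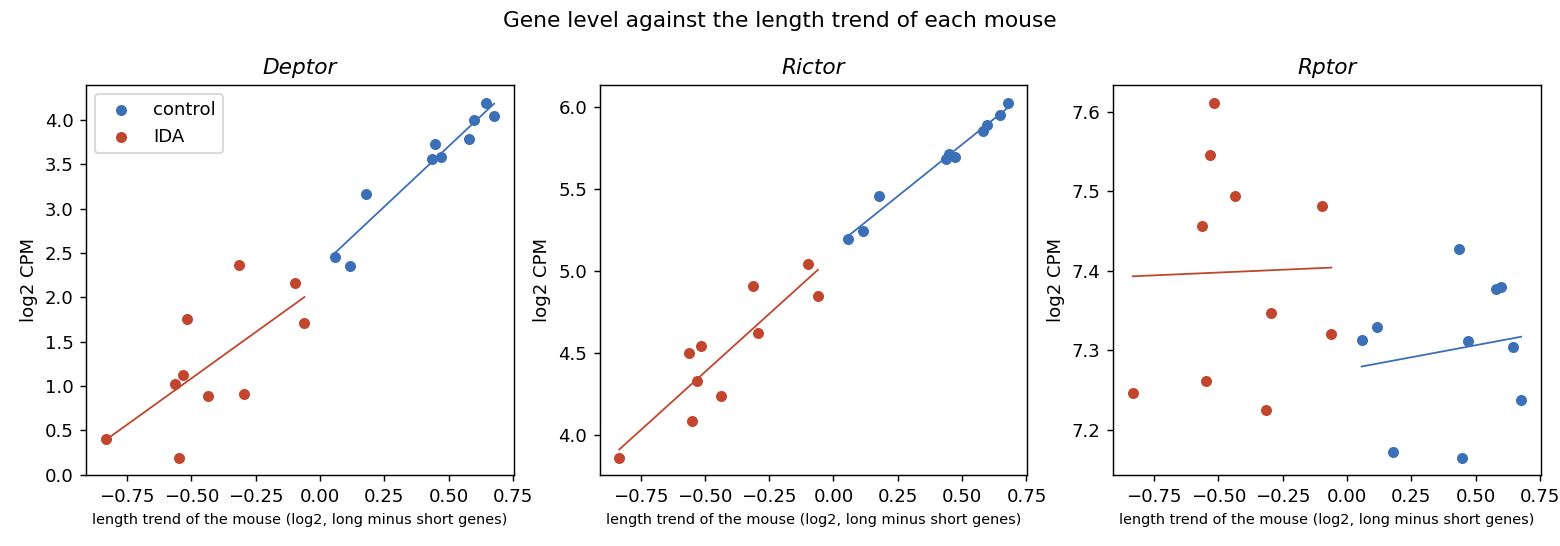
Log2 CPM of *Deptor*, *Rictor* and *Rptor* in each mouse (vertical) against the length trend of the mouse (horizontal, log2 units, longest minus shortest 10% of genes), with a fitted line per diet. *Deptor* and *Rictor* climb with the trend inside both diets, whereas the lines of *Rptor* are nearly flat, and control mice (0.06 to 0.68) and IDA mice (-0.83 to -0.06) do not overlap horizontally.

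Other properties of the libraries moved *Deptor* less. The column names of the authors' table carry library numbers in separate runs, whose meaning the labels do not give. Within the run of lower numbers, *Deptor* was at 12.8 ± 5.04 CPM in control (SD, n = 5) and 2.35 ± 1.13 CPM in IDA mice (SD, n = 7). Within the run of higher numbers, it was at 10.9 ± 4.1996 CPM in control (SD, n = 5) and 2.51 ± 2.06 CPM in IDA mice (SD, n = 3). The log2 fold change was -2.07 with log2 library size as a covariate and -2.40 with the mean of 5 erythroid markers as a covariate. That marker mean ran from 3.26 to 4.27 on the log2 CPM scale in control and from 4.71 to 7.02 in IDA mice. The fit with it therefore also compares control and IDA mice that share no value of the covariate. Across the 100 fits that left out 1 mouse of each diet, the log2 fold change of *Deptor* lay between -2.59 and -2.13.

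*Rictor*, the defining part of mTORC2, was the member with the next largest difference without correction (chr15:6708381-6800400, plus strand, 9313 exonic bases). Control hearts ranged from 36.4 to 65.0 CPM around a median of 52.0, and IDA hearts from 14.3 to 32.7 CPM around a median of 22.7. Every mouse on the deficient diet was below every control, a separation in that direction seen in 6.28% of tested genes. Its mean was 51.6 ± 9.80 CPM in control and 23.0 ± 5.95 CPM in IDA hearts (SD, n = 10 each), with a log2 fold change of -1.17 (standard error 0.13). The gene length correction brought this difference to -0.59 (standard error 0.08), correction for length and GC content together gave -0.38 (standard error 0.07), and the length trend as a covariate gave -0.05 (standard error 0.12). Like *Deptor*, *Rictor* followed the length trend in control mice, with r = 0.99 (permutation p = 1e-05, the smallest that 100000 resamples can give, adjusted p = 0.0002, rho = 0.99, permutation p = 1e-05, adjusted p = 0.0002). In IDA mice, where the relation of *Deptor* did not pass adjustment, *Rictor* had r = 0.88 (permutation p = 0.00094, adjusted p = 0.00627, rho = 0.82, permutation p = 0.0058, adjusted p = 0.029). With the 2 mice farthest out in *Rictor* set aside, r was 0.98 in control mice (permutation p = 0.00012, adjusted p = 0.0024). In IDA mice it was then 0.73 (permutation p = 0.0389, adjusted p = 0.195) and did not pass adjustment either. In the length class of *Rictor*, 1359 genes with exons of 6329 bases or more, the median log2 fold change was -0.53 and 48 genes had a lower one than *Rictor*. This class is the longest 10% of genes from which the length trend was computed. *Rictor* is therefore itself among the genes behind that measure, as are *Mtor*, *Rptor* and *Tsc1*.

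The mTOR kinase and raptor, the core of mTORC1, differed far less without correction. *Mtor* (chr4:148448582-148557685, plus strand, 8595 exonic bases) spanned 163 to 227 CPM in control hearts around a median of 200.5, and 124 to 204 CPM in IDA hearts around a median of 158. The groups overlapped, and 9 of 10 IDA mice lay below the control mean. Its log2 fold change was -0.30 (standard error 0.07), but with the gene length correction it was 0.24 (standard error 0.05), so its direction depends on that choice. *Rptor* (chr11:119602995-119899591, plus strand, 6932 exonic bases) spanned 143 to 172 CPM in control and 149 to 195 CPM in IDA hearts, with medians of 159 and 169. Its groups overlapped, with a log2 fold change of 0.10 (standard error 0.05) that became 0.55 (standard error 0.07) with the gene length correction.

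Among the shared and inhibitory parts, *Akt1s1*, which encodes PRAS40, was higher in IDA (chr7:44849224-44855421, plus strand, 1882 exonic bases). Control hearts ranged from 92.8 to 112 CPM around a median of 103, and IDA hearts from 116 to 147 CPM around a median of 135. Every IDA mouse was above every control, as in 4.97% of tested genes. The log2 fold change was 0.37 (standard error 0.05), it was 0.23 (standard error 0.05) with the gene length correction, and with length and GC content corrected together it was -0.09 (standard error 0.04). *Mlst8*, the part shared by both complexes, had medians of 28.3 CPM in control and 34.6 CPM in IDA hearts, with ranges of 23.7 to 35.3 and 30.1 to 40.5 CPM that overlapped (chr17:24473550-24479078, minus strand, 3366 exonic bases). Its log2 fold change of 0.25 (standard error 0.07) became 0.35 (standard error 0.07) with the gene length correction. Of its exons, 997 bases (29.6%) are shared with *Bricd5* on the opposite strand, which had 0 counts in all mice, so the level of *Mlst8* outside that stretch is what was counted if such read pairs were set aside as ambiguous.

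Of the genes of the TSC complex, *Tsc1* was lower in IDA without correction. *Tsc1*, which encodes hamartin (chr2:28641243-28691167, plus strand, 7697 exonic bases), spanned 116 to 163 CPM in control and 88.5 to 132 CPM in IDA hearts, with medians of 143 and 118. All 10 IDA mice were below the control mean, although the ranges overlapped. Its log2 fold change was -0.32 (standard error 0.07), and with the gene length correction it was 0.18 (standard error 0.05), again the other direction. *Tsc2*, which encodes tuberin, the GTPase-activating part (chr17:24595937-24632629, minus strand, 6147 exonic bases), spanned 329 to 394 CPM in control and 329.6 to 422 CPM in IDA hearts, with medians of 350 and 370. Its log2 fold change was 0.08 (standard error 0.05) and, with the gene length correction, 0.47 (standard error 0.07). The exons of *Tsc2* share 578 bases (9.40%) with *Pkd1* on the opposite strand, a gene counted at 1302 to 2567 read pairs in control and 852 to 1487 in IDA mice.

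Neither *Rheb* nor *Ddit4* separated the diets. *Rheb* (chr5:24802823-24842361, minus strand, 1521 exonic bases) spanned 83.8 to 105.4 CPM in control and 86.9 to 105.5 CPM in IDA hearts, with medians of 94.5 and 95.8. Its log2 fold change was 0.04 (standard error 0.04) and changed sign with the gene length correction, to -0.16 (standard error 0.05). *Ddit4*, a stress-induced gene known as a target of hypoxia-inducible factors (HIF) and of the glucocorticoid receptor (chr10:59949675-59951770, minus strand, 1685 exonic bases), spanned 50.4 to 165 CPM in control and 91.6 to 167 CPM in IDA hearts, with medians of 112.9 and 112.6. The log2 fold change was 0.13 (standard error 0.17), and -0.04 (standard error 0.17) with the gene length correction. Its spread between control mice, with a coefficient of variation of 33.7%, was wider than that of the other members apart from *Deptor*.

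The core sequence that HIF binds, ACGTG, was searched on both strands in the 250 bases before an annotated start of each gene. RefSeq promoter windows of GRCm38.p6 matched 9 of the 10 members, *Deptor* being the exception. The sequence was found for *Ddit4*, *Rheb* and *Rptor*, and in 16.6% of the 32851 windows in the table. The window of *Akt1s1*, chr7:44850122-44850371, lies inside the gene, which begins at base 44849224. Those of *Tsc1*, *Tsc2*, *Rictor* and *Mlst8* overlap the RefSeq span of their gene. For these genes the bases before the outermost start were searched only in part, and for *Akt1s1* not at all. The upstream stretch of *Ddit4* is shown in full, since this is the member named as a HIF target, followed by the 40 bases around the match for the others, with ACGTG or its reverse complement in capitals. In *Rheb*, matches on both strands overlap as CACGTG, a hexamer found in 6.02% of windows.
*Ddit4* upstream, chr10:59951771-59952020, minus strand: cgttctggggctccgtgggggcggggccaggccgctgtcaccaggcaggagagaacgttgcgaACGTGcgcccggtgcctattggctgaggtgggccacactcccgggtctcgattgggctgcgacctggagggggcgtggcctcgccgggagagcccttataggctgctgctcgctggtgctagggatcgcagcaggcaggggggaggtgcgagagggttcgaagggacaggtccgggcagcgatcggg
*Rheb* match, chr5:24842435-24842474, minus strand: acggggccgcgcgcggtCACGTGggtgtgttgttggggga
*Rptor* match, chr11:119602854-119602893, plus strand: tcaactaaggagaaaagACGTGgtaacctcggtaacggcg
The match begins 187 bases before the start in *Ddit4*, 96 in *Rheb* and 34 in *Rptor*. As given above, *Ddit4*, *Rheb* and *Rptor* all overlapped between the diets. The log2 fold change of *Rptor* was 0.10 without correction and 0.55 with the gene length correction.

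Counted together, 2 of the 10 members were called higher in IDA, where 30.6% of tested genes were, and 4 were called lower, where 29.2% were. With the gene length correction, 6 were called higher against 27% of tested genes, and 3 lower against 20.3%. The median log2 fold change of the members was 0.06, beside 0.02 for all tested genes, and 0.20 beside 0.04 with the correction. Nothing is read from these counts, since the members were chosen on this contrast.

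**Figure D3:**
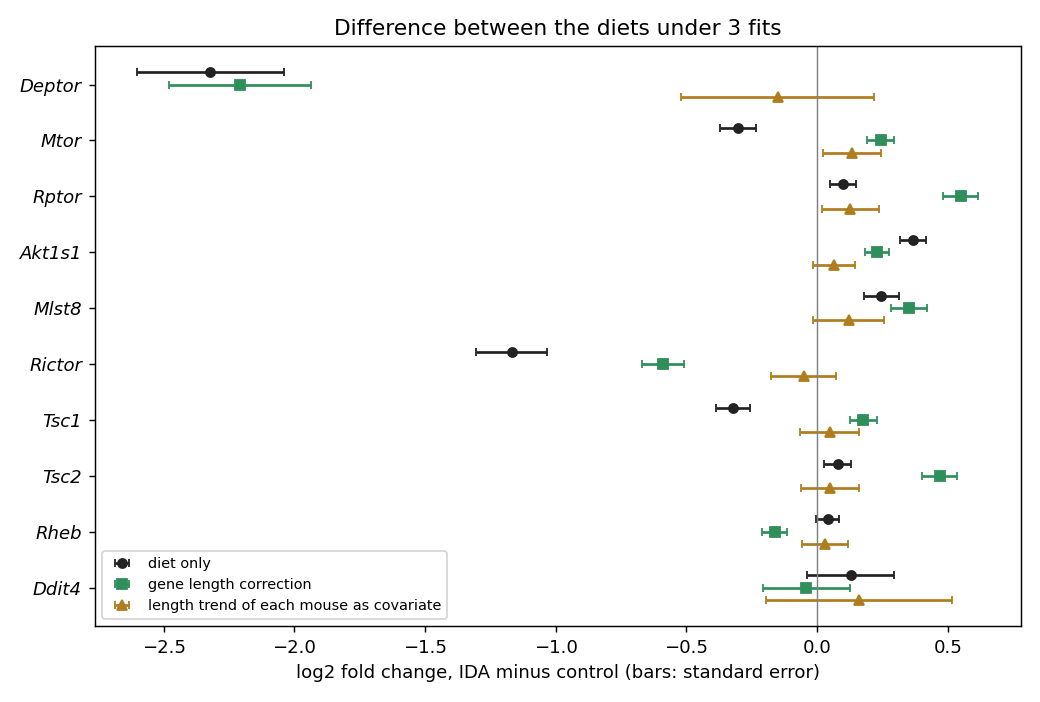
Log2 fold change between IDA and control mice (horizontal, with standard error bars) for the 10 genes in a fit with diet only, with the gene length correction, and with the length trend of each mouse as a covariate. *Deptor* lies at -2.32, -2.21 and -0.15 in these fits, *Rictor* at -1.17, -0.59 and -0.05, and *Mtor* and *Tsc1* lie on both sides of 0.

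Levels of the genes can be compared within a heart once they are divided by exonic length. That length includes the bases shared with *Pkd1* in *Tsc2* and with *Bricd5* in *Mlst8*, and leaves out the downstream stretch of *Deptor*. In control hearts, *Ddit4*, *Rheb*, *Tsc2* and *Akt1s1* were the most abundant, at 65.5 ± 22.1, 61.2 ± 4.16, 57.5 ± 3.71 and 54.7 ± 3.74 CPM per kb (SD, n = 10 each). *Mtor* and *Rptor* followed at 23.1 ± 2.18 and 22.8 ± 1.36 CPM per kb, and *Tsc1* at 18.6 ± 1.89. The lowest levels were those of *Mlst8* at 8.65 ± 1.02, *Rictor* at 5.54 ± 1.05 and *Deptor* at 3.45 ± 1.30 CPM per kb. Neighbours in this order were compared within the 10 control mice by a two-sided exact sign-flip permutation test on log2 levels, adjusted over 9 pairs. The order was set on the means of these same mice, and 5 of the 10 runs that left out 1 control mouse kept it. *Ddit4* and *Rheb* (exact p = 0.908, adjusted p = 0.908), *Rheb* and *Tsc2* (exact p = 0.0391, adjusted p = 0.0502) and *Mtor* and *Rptor* (exact p = 0.719, adjusted p = 0.809) did not differ beyond their spread. *Tsc2* was above *Akt1s1* in 9 of 10 mice by 0.07 on the log2 scale (exact p = 0.0176, adjusted p = 0.0264). The other 5 neighbours kept their order in 10 of 10 mice (exact p = 0.00195 each, the smallest this design allows, adjusted p = 0.00352), by between 0.29 for *Rptor* over *Tsc1* and 1.25 for *Akt1s1* over *Mtor*.

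**Figure D4:**
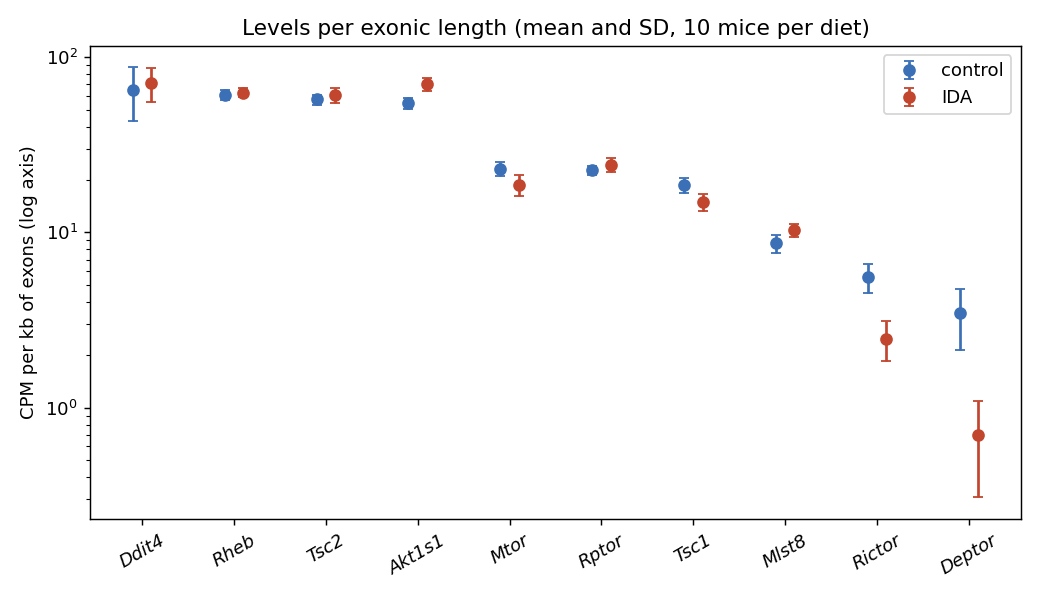
Mean level of each gene per exonic length (vertical, CPM per kb on a log axis, bars show the SD over 10 mice) in control and IDA hearts, ordered by the control level. *Deptor* is lowest in both diets, at 3.45 CPM per kb in control and 0.698 in IDA hearts.

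In IDA hearts *Ddit4* and *Akt1s1* had the highest means, at 71.4 ± 15.7 and 70.5 ± 6.20 CPM per kb (SD, n = 10 each), and *Rptor* stood at 24.4 ± 2.32 and *Mtor* at 18.7 ± 2.51, while *Mlst8*, *Rictor* and *Deptor* remained the 3 lowest. Within a mouse, the level of *Rptor* per kb was 4.25 ± 0.916 times that of *Rictor* in control (SD, n = 10, range 3.11 to 5.86) and 10.5 ± 2.68 times in IDA hearts (SD, n = 10, range 6.73 to 14.3). *Deptor* stood at 0.147 ± 0.0520 of the level of *Mtor* in control (range 0.0713 to 0.231) and at 0.0366 ± 0.0199 in IDA hearts (range 0.0150 to 0.0824). *Tsc1* stood at 0.325 ± 0.0372 of the level of *Tsc2* in control and 0.246 ± 0.0207 in IDA hearts. The first of these ratios did not overlap between the diets, but *Rictor* alone did not either. How often ratios of other genes separate the diets was not computed. Ratios of genes that follow the length trend of the library to unlike degrees move with that trend as well as with the genes. In control mice, r with the length trend was 0.99 for *Rictor* and 0.16 for *Rptor*.

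Variation between mice on the same diet was not used to choose the genes and could be tested. *Deptor* was compared with each of the other 9 members within each diet, 18 relations in all, on log2 CPM. *Rictor* followed it most closely in control mice, with r = 0.98 (permutation p = 3e-05, adjusted p = 0.00054) and rho = 0.98 (permutation p = 2e-05, adjusted p = 0.00036). In IDA mice r was 0.89 (permutation p = 0.00071, adjusted p = 0.00426) and rho 0.87 (permutation p = 0.00226, adjusted p = 0.0102). With the 2 mice farthest out in *Deptor* set aside, r was 0.96 in control (adjusted p = 0.0133) and 0.82 in IDA mice (adjusted p = 0.0594). After the gene length correction the relation with *Rictor* stood at r = 0.96 in control (permutation p = 3e-05, adjusted p = 0.00054) and r = 0.90 in IDA mice (permutation p = 0.00057, adjusted p = 0.00342). That correction removes only the average trend at a given exonic length, and *Deptor* and *Rictor* each followed the length trend in control mice (r = 0.96 and 0.99). Whether their relation holds apart from the length trend was not tested.

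*Akt1s1* moved the opposite way to *Deptor* among control mice, with r = -0.79 (permutation p = 0.00504, adjusted p = 0.0225) and rho = -0.88 (permutation p = 0.00159, adjusted p = 0.00954), and r = -0.88 without the 2 farthest mice. After the gene length correction, its r in control mice was -0.56 (permutation p = 0.096, adjusted p = 0.288). In IDA mice *Akt1s1* had r = -0.01 with *Deptor* without correction (permutation p = 0.983, adjusted p = 0.988). *Rheb* was the member closest to *Deptor* among IDA mice, with r = 0.91 (permutation p = 0.00041, adjusted p = 0.00369) and rho = 0.90 (permutation p = 0.00086, adjusted p = 0.00774), and r = 0.84 without the 2 farthest mice (adjusted p = 0.0551). In control mice the same pair had r = -0.44 (permutation p = 0.197, adjusted p = 0.394) and rho = -0.47 (permutation p = 0.178, adjusted p = 0.363), and the difference between the diets in this relation was not tested. *Tsc1* had r = 0.75 in control (permutation p = 0.0125, adjusted p = 0.0374, rho = 0.47, permutation p = 0.182, adjusted p = 0.363) and 0.77 in IDA mice (permutation p = 0.00625, adjusted p = 0.0225, rho = 0.71, permutation p = 0.0269, adjusted p = 0.0967), and *Mtor* had r = 0.72 in control mice (permutation p = 0.0176, adjusted p = 0.0453, rho = 0.47, permutation p = 0.178, adjusted p = 0.363). The control relations rested on the 2 farthest mice, without which r was 0.20 for *Tsc1* and 0.22 for *Mtor*, whereas *Tsc1* in IDA mice then had r = 0.81 (adjusted p = 0.0594). With the gene length correction *Tsc1* had r = -0.13 in control and 0.24 in IDA mice, and *Mtor* had r = -0.40 in control mice. That correction brought out relations of opposite sign with *Tsc2* and *Rptor* in control mice. *Tsc2* had r = -0.82 (permutation p = 0.00247, adjusted p = 0.0111) and rho = -0.88 (permutation p = 0.00171, adjusted p = 0.0103), where r was -0.40 without it. *Rptor* had r = -0.81 (permutation p = 0.00466, adjusted p = 0.0168) and rho = -0.70 (permutation p = 0.0306, adjusted p = 0.0929), where r was 0.01 without it. In IDA mice *Tsc2* had r = -0.17 and *Rptor* -0.31 after correction. Their r with the length trend in control mice was -0.43 and 0.16, and what the correction adds to these relations was not tested. *Ddit4* had r = 0.09 with *Deptor* in control and 0.01 in IDA mice (permutation p = 0.81 and 0.988, adjusted p = 0.988 for each).

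Across all tested genes, the 5 whose log2 CPM lay closest to *Deptor* over the 20 mice, once each diet was centred on its own mean, were *Zyg11b* (r = 0.95), *4932438A13Rik* (r = 0.94), *Bod1l* (r = 0.94), *Upf2* (r = 0.94) and *Efr3a* (r = 0.94). These are descriptions, and the 20 mice share the length trend. Their exons are 5174 to 15883 bases long, and after the gene length correction their r with *Deptor* ran from 0.17 for *Zyg11b* to 0.86 for *4932438A13Rik*. On the same scale *Rictor* had r = 0.93, above 99.8% of tested genes, and 0.90 after correction, whereas the median tested gene had r = -0.01. Their own differences between the diets were smaller than that of *Deptor*, with log2 fold changes from -0.99 for *4932438A13Rik* to -0.36 for *Upf2*, which became -0.20 and -0.05 after the gene length correction.

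The rest of the pathway was described through 90 other genes in 7 lists written by name, all of which passed the filter on low counts. Of these, 30 rose and 33 fell in IDA, and the other 27 were not called, with a median log2 fold change of -0.01. Among all tested genes 30.6% rose and 29.2% fell, so the share of higher pathway genes was near that of all genes. With the gene length correction, 32 rose and 19 fell, with a median of 0.05, beside 27% and 20.3% of all tested genes. The counts of each list below stand against these same shares. With the length trend of each mouse as a covariate, 1 of the 90 was called.

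**Figure D5:**
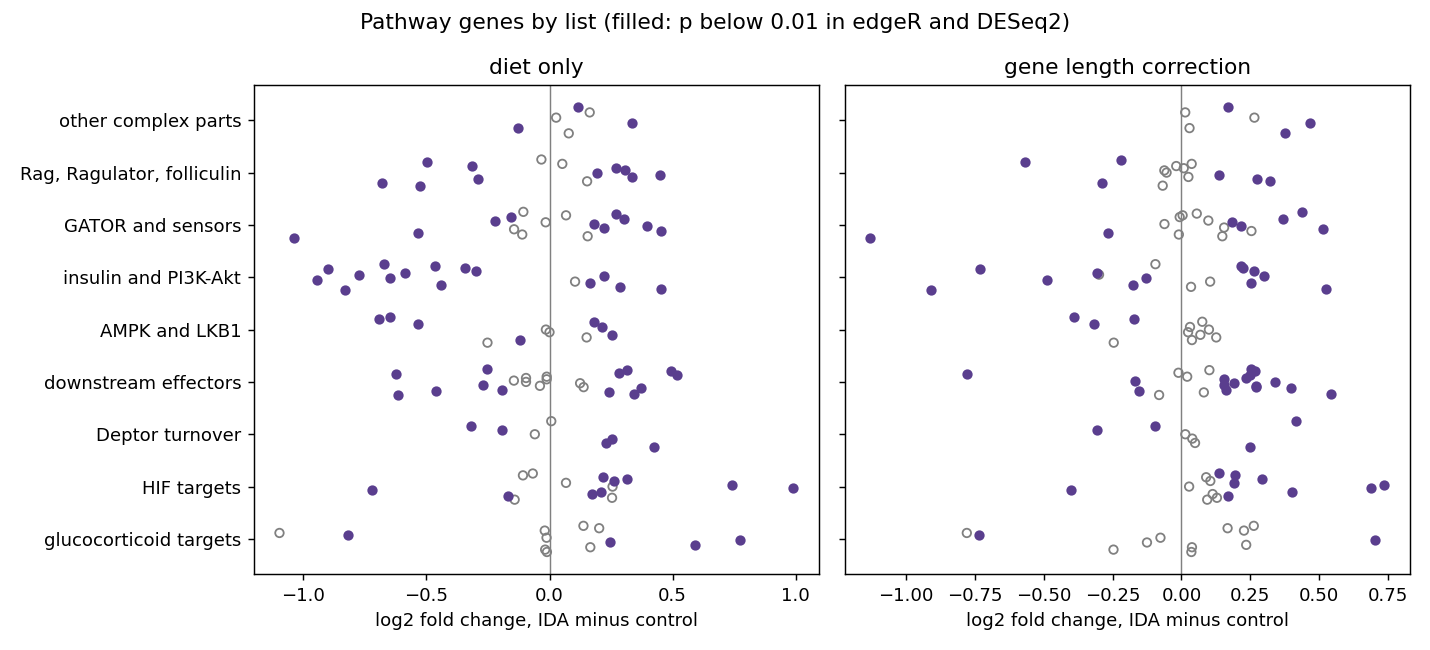
Log2 fold change between IDA and control mice (horizontal) of each gene in the 7 pathway lists and in the lists of HIF and glucocorticoid targets, with diet only (left) and with the gene length correction (right). Filled points passed p below 0.01 in each of edgeR and DESeq2. Most genes of insulin and PI3K-Akt input lie below 0 on the left, with 11 of 16 filled and lower, and 6 of 16 on the right.

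Among the 6 other complex parts and assembly factors, 2 rose and 1 fell (median 0.10), beside 30.6% and 29.2% of all tested genes. With log2 library size as a covariate, 0 were called by edgeR and DESeq2 together, while at an unadjusted p below 0.05 each tool had 2 higher and 1 lower. *Telo2*, an assembly factor of mTOR-like kinases, rose by 0.34 on the log2 scale (standard error 0.07), from 41.5 ± 4.59 to 52.4 ± 6.94 CPM (SD, n = 10 each). *Mapkap1*, which encodes the mTORC2 part mSIN1, rose by 0.11 (standard error 0.03), and *Tti1*, a partner of *Telo2*, fell by 0.13 (standard error 0.04) but had 0.03 after the gene length correction.

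In the lysosomal branch that reports amino acids to mTORC1, 5 of 13 genes rose and 5 fell (median 0.05), and 3 rose and 3 fell after the gene length correction. The genes that rose were all parts of Ragulator, the scaffold of the Rag GTPases, led by *Lamtor4*, from 44.8 ± 4.18 to 61.2 ± 4.95 CPM (log2 fold change 0.45, standard error 0.06), and *Lamtor5* (0.34, standard error 0.04). They are short, and after the gene length correction *Lamtor4* had 0.14 and *Lamtor5* 0.03. The folliculin partners *Fnip1*, at -0.68 (standard error 0.12), and *Fnip2*, at -0.53 (standard error 0.14), fell, and had -0.29 and -0.07 after the correction.

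For GATOR1, GATOR2, KICSTOR and the nutrient sensors, 6 of 16 genes rose and 4 fell (median 0.03), and 5 rose and 2 fell after the gene length correction. *Sesn3*, a sestrin, fell from 12.8 ± 3.36 to 6.21 ± 1.24 CPM, a log2 fold change of -1.04 (standard error 0.15) that was -1.13 (standard error 0.15) after the gene length correction and -0.06 (standard error 0.25) with the length trend as a covariate. *Gatsl2*, the gene also named *Castor2*, fell by 0.53 (standard error 0.08), whereas *Gatsl3*, also named *Castor1* and encoding an arginine sensor, rose by 0.45 (standard error 0.11). *Kptn*, a part of KICSTOR, rose by 0.40 (standard error 0.08). After the gene length correction *Gatsl2* had -0.27 and *Kptn* 0.22, and *Gatsl3*, at 0.25 (standard error 0.10), was no longer called.

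Genes of insulin and PI3K-Akt input had 4 of 16 higher and 11 lower without correction (median -0.45), where 30.6% and 29.2% of all tested genes were. *Pdpk1*, which encodes the kinase PDK1 that activates Akt, fell from 151 ± 23.7 to 78.5 ± 16.6 CPM (log2 fold change -0.95, standard error 0.11), and *Irs2*, an adaptor of the insulin receptor, fell by 0.90 (standard error 0.27). *Rps6ka1*, which encodes the kinase RSK1, rose by 0.45 (standard error 0.09), as did *Tbc1d7*, a part of the TSC complex, by 0.29 (standard error 0.05). The list is long in sequence, with a median of 4794.5 exonic bases, and with the gene length correction 6 genes rose and 6 fell (median -0.03). *Pdpk1* then stood at -0.49 (standard error 0.07) and *Tbc1d7* at 0.03 (standard error 0.04).

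Among 11 genes of AMPK, the energy-sensing kinase that inhibits mTORC1, and of its activator LKB1, 3 rose and 4 fell (median -0.01), near the shares of all tested genes. Both catalytic subunits fell, *Prkaa2* by 0.69 on the log2 scale (standard error 0.09) and *Prkaa1* by 0.65 (standard error 0.07). *Stk11*, which encodes LKB1, rose by 0.25 (standard error 0.05) and *Prkag1*, a regulatory subunit, by 0.21 (standard error 0.04). After the gene length correction *Prkaa1* had -0.39, *Prkaa2* -0.17, *Stk11* 0.07 and *Prkag1* 0.03, and none of the list rose, with 3 lower by edgeR and DESeq2.

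Of 21 downstream effectors of the mTOR complexes, 7 rose and 6 fell (median -0.01), near the shares of all tested genes, and with the gene length correction 13 rose and 3 fell (median 0.16, beside 27% and 20.3% of all tested genes). The translation repressors did not move together, since *Eif4ebp3* rose by 0.52 (standard error 0.09) and *Eif4ebp2* fell by 0.62 (standard error 0.08), from 88.4 ± 8.17 to 57.5 ± 8.92 CPM. After correction *Eif4ebp2* stood at -0.78 (standard error 0.09) and *Eif4ebp3* at 0.25 (standard error 0.08). *Rps6*, the ribosomal protein that S6 kinase phosphorylates, rose by 0.49 (standard error 0.10), or 0.27 after correction, although genes of this kind have near-identical pseudogenes that make their counts uncertain. *Prkca*, a protein kinase C stabilised by mTORC2, fell by 0.62 (standard error 0.09) and had -0.08 after correction.

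DEPTOR protein is marked for degradation by casein kinase 1 and a ubiquitin ligase built on βTrCP. Of 7 genes of that machinery and its opponent, 3 rose and 2 fell (median 0.01), and 2 rose and 2 fell after the gene length correction. *Csnk1a1*, which encodes the casein kinase, fell by 0.19 (standard error 0.05), and *Fbxw11*, which encodes a βTrCP protein, fell by 0.32 (standard error 0.05). *Otub1*, a deubiquitinase, rose from 94.2 ± 7.45 to 127 ± 9.94 CPM (log2 fold change 0.43, standard error 0.05), and *Skp1a*, a ligase subunit, rose by 0.25 (standard error 0.05). After that correction *Fbxw11* had -0.10, *Skp1a* 0.04, *Otub1* 0.25 and *Csnk1a1* -0.31. Counts of RNA do not measure the protein.

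HIF targets were examined beside *Ddit4*, and 7 of 15 rose while 2 fell (median 0.21, and 0.14 after the gene length correction), beside 30.6% and 29.2% of all tested genes. With the mean of 5 erythroid markers as a covariate, 2 rose and 3 fell, and the summed level of those markers did not overlap between the diets. *Ankrd37* rose from 7.13 ± 0.983 to 14.2 ± 2.70 CPM (log2 fold change 0.99, standard error 0.11) and *Egln3*, which encodes an oxygen-sensing prolyl hydroxylase, rose from 158 ± 16.4 to 264 ± 31.2 CPM (0.74, standard error 0.07). In both, every IDA mouse was above every control, as in 4.97% of tested genes, and both were named for the size of their rise in this contrast. With the length trend as a covariate they stood at 1.18 (standard error 0.23) for *Ankrd37* and 0.84 (standard error 0.14) for *Egln3*. *Pfkfb3*, a regulator of glycolysis, fell by 0.72 (standard error 0.15), and *Hk2*, a hexokinase, fell by 0.17 (standard error 0.04). After the gene length correction *Pfkfb3* had -0.40 and *Hk2* 0.17.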

How the data were processed

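Messenger RNA of 20 hearts was sequenced as paired reads. The authors used STAR for alignment (mm10), discarded PCR duplicates and counted read pairs on exons with featureCounts (version 1.4.5-p1), ignoring strand, and the deposited counts per gene were not normalized. Tool names come from the submitters' processing notes and the file header. Mice were grouped by their titles. The 13590 genes reaching 1 CPM in 10 mice (of 23420) were scaled by TMM in edgeR 4.0.16 (R 4.3.3) and fitted with its quasi-likelihood test, diet being the sole factor. DESeq2 1.42.0 was run on the same genes. A gene was called at p below 0.01 in both tools, after the study's methods. Here 8131 genes were called, 4158 higher and 3973 lower in IDA. The paper reports far fewer genes with p below 0.01 in both packages, most of them lower in IDA, after leaving out the contaminated samples. The shares of all tested genes given here come from the present fit, and the reason for the gap was not tested. Log2 CPM used a prior count of 2. Standard errors are the log2 fold change divided by the root of the F statistic. The gene length correction entered a loess curve per mouse (span 0.5, degree 1) as offsets, and the GC correction used GENCODE transcripts (94% of tested genes). Correlations used 100000 permutations, two-sided, with Benjamini-Hochberg adjustment.

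The members and lists were chosen with earlier results of these data known. Genes named in the text are the members, the called genes with the 2 largest changes in each direction of a list, the 5 genes nearest to *Deptor*, and genes overlapping a member. Replicates are separate mice by their labels. Marker lists for 9 cell types were written by name. The fit recovered known folds in simulated counts, drawn with the same dispersion for every gene and no length trend. That simulation cannot show how the fit behaves under the length trend of these libraries. Values of some listed genes are not reported here.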

Additional observations from a re-analysis of the deposited data

How the results depend on the processing

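The alternatives were DESeq2 size factors, no filter on low counts, adjusted p below 0.05 in edgeR or in DESeq2, corrections for length and for length with GC content, covariates, the replicate number as a block and leaving out mice. The covariates for library number and length trend were added after the data were examined. With the length trend as a covariate, the calls dropped from 8131 to 229 among all genes and from 63 to 1 in the pathway lists, and the log2 fold change of *Deptor* moved to -0.15. In that fit the values of *Mtor* and *Tsc1* turned to 0.13 and 0.048, the length correction turned them to 0.24 and 0.18, and length with GC content to 0.20 and 0.20. The latter also turned *Akt1s1* to -0.090. The cause was not tested. Leaving out 1 mouse at a time gave 7775 to 8234 calls among all genes, 62 to 66 in the pathway lists, -2.49 to -2.22 for *Deptor*, and 5 to 7 of 9 neighbour pairs that differed, against 6. Of 18 relations with *Deptor*, 7 passed an adjusted p of 0.05, and 2 did without the 2 farthest mice.

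Replicate numbers are shared between the diets, but same-numbered mice did not deviate together in every pair (correlations from -0.28 to 0.26, and 3 of 10 control mice correlated best with their own number). With the replicate number as a block, 7462 genes were called and *Deptor* stood at -2.29. Depth is a limit for *Deptor*, which had the fewest read pairs of the members, with a median of 13 in IDA mice.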

Other observations

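*Ddit4* is also a glucocorticoid receptor target, and that list was measured apart from the pathway. Of 12 genes, 3 rose and 1 fell in IDA (median 0.06, and 0.04 after the gene length correction), beside 30.6% and 29.2% of all tested genes. After that correction 1 rose and 1 fell, and with the mean of 5 erythroid markers as a covariate 0 rose and 1 fell by edgeR and DESeq2 together, while at an unadjusted p below 0.05 each tool had 2 higher and 1 lower. *Cebpd*, a transcription factor of the acute response, rose from 24.99 ± 5.48 to 42.5 ± 15.5 CPM (SD, n = 10 each, log2 fold change 0.78, standard error 0.17), and *Mt2*, a metallothionein, rose by 0.59 (standard error 0.20) but had 0.24 (standard error 0.20) after the correction and was then not called. *Klf9*, a transcription factor that glucocorticoids induce, fell from 194 ± 22.4 to 110 ± 30.8 CPM (log2 fold change -0.82, standard error 0.13), and had 0.02 (standard error 0.18) with the length trend of each mouse as a covariate.

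Markers of other cell types were counted in the same way, beside 30.6% higher and 29.2% lower among all tested genes. With the gene length correction those shares were 27% and 20.3%. Endothelial genes had 1 of 6 higher and 3 lower, fibroblast genes 1 and 1 of 6, smooth muscle and pericyte genes 1 and 2 of 6, and leukocyte genes 3 and 1 of 6 tested. Adipocyte markers had 0 of 4 tested genes called by edgeR and DESeq2 together, and 0 at an unadjusted p below 0.05 in either tool, skeletal muscle markers had 2 of 4 higher, and T cell and thymus markers 1 of 2 higher. Cardiomyocyte markers had 0 of 7 higher and 1 lower. These counts changed with the gene length correction, to 3 higher and 3 lower for cardiomyocyte, 2 and 0 for endothelial, 3 and 2 for fibroblast, 2 and 1 for smooth muscle and pericyte, and 1 and 0 for leukocyte genes, and to 0 and 0 for skeletal muscle, T cell and adipocyte genes. Erythroid genes, with 5 of 5 tested genes higher without correction, had 4 higher and 0 lower with it. With log2 library size as a covariate, 4 of the 5 were higher. The part of these cell types in the level of *Deptor* was not tested.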
